A study of Canis lupus familiaris with 34 samples.

Results

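Elastic fibres give tissues their recoil. Each fibre has a core of crosslinked elastin laid down on a scaffold of microfibrils, which are built from fibrillins and their associated glycoproteins, and fibulins and lysyl oxidase help to load and crosslink the elastin. In the mitral valve these fibres are densest in the atrialis, the layer that faces the left atrium. The 10 genes described here were chosen by name from this machinery by a rule that uses no measured value, although earlier results of these data were known when the list was drawn up. They are *ELN* (elastin, the core protein), *FBN1* and *FBN2* (the fibrillins of the microfibrils), *MFAP4* and *MFAP5* (microfibril-associated glycoproteins), *FBLN1*, *FBLN2*, *FBLN5* and *EFEMP2* (fibulins, the last also called fibulin-4) and *LOX* (lysyl oxidase, the enzyme that starts the crosslinking). They are 10 of 22035 gene symbols and 10 of 23768 features in the deposited table.

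Mitral valves were taken after euthanasia from 34 privately owned Cavalier King Charles Spaniels, a breed prone to myxomatous mitral valve disease (MMVD). The dogs were about 10 years old, which is what 10y in the group names stands for. The 10y-noCHF group held 19 dogs (10 females, 9 males), 1 of them free of structural heart disease and the rest with MMVD that had not led to congestive heart failure (CHF). The 10y-MMVD-CHF group held 15 dogs (6 females, 9 males) in which MMVD had progressed to CHF. Each dog gave 1 library of polyadenylated RNA. The dogs in CHF were diagnosed partly by their response to diuretics, so drug treatment and CHF cannot be told apart. Stage, age and weight are not paired with the dogs here, and no comparison used them.

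Total counts per dog ranged from 46185256 to 82361245. The 10 markers of valve interstitial cells summed to between 9950 and 25600 CPM (counts scaled by library size). Their group means ran from 12.4 CPM for *TCF21* in 10y-MMVD-CHF dogs to 3740 CPM for *LUM* in 10y-noCHF dogs. The 19 cardiomyocyte markers summed to between 104 and 51600 CPM, so the libraries held very different amounts of heart muscle RNA. The libraries of CAV614 and CAV1047, both from 10y-MMVD-CHF dogs, had the lowest likeness to any other library, with a highest Pearson correlation of counts of 0.842 and 0.923 over 18419 features, and values without both are given where they changed a call.

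All 10 genes passed the filter on low values, a sum of at least 100 counts. *FBN1* was counted on its canine RefSeq feature (chromosome 30, 14925118 to 15148304, minus strand, canFam4), which is made of 65 exon intervals. The other 9 were counted on alignments of human XenoRefSeq genes, which mostly run over the whole gene, introns included. *ELN* lies on chromosome 6 (6216290 to 6248414), *FBN2* and *LOX* on chromosome 11 (17228745 to 17470127 and 11918543 to 11934733), *MFAP4* on chromosome 5 (41043435 to 41046745) and *MFAP5* on chromosome 27 (9060204 to 9074245). *FBLN1* lies on chromosome 10 (21444927 to 21528496), *FBLN2* on chromosome 20 (3906237 to 3965566), *FBLN5* on chromosome 8 (1226613 to 1296525) and *EFEMP2* on chromosome 18 (51891639 to 51898073). The *FBLN1* and *FBLN2* features hold 71.2% and 60.6% of the RefSeq span of their gene, and the *EFEMP2* feature shares 689 bases with *MUS81*, a DNA repair gene with 37.1% as many counts. Reads were counted without strand, and feature lengths do not measure transcripts, so levels were not compared between genes.

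None of the 10 elastic fibre genes passed the test between 10y-MMVD-CHF and 10y-noCHF dogs. The question was whether the valve expressed this machinery at another level once MMVD had led to CHF. With edgeR's quasi-likelihood test, a term for sex and a false discovery rate (FDR, Benjamini-Hochberg) below 0.1, 0 of 10 genes were called, against 0.118% of the 19568 features tested. Their FDR ran from 0.848 to 0.993, and 0 of 10 had an unadjusted p below 0.05, against 6.31% of all features. DESeq2 and limma voom also called 0 of 10, against 0.327% and 0.128% of features. The median log2 difference of the 10 genes was 0.04, beside 0.0076 over all features. In bulk tissue, fewer cells of a type and less RNA per cell cannot be told apart.

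*ELN* encodes tropoelastin, the soluble precursor of the elastin core. Its level ran from 154 through a median of 328 to 604 CPM in 10y-noCHF dogs. In 10y-MMVD-CHF dogs it ran from 133 through 371 to 861 CPM. Both ends of the whole range, CAV2156 and CAV487, were males in CHF, and all 19 dogs without CHF lay inside the range of the dogs with it. The means were 376 ± 177 (SD, n = 15) and 339 ± 120 CPM (SD, n = 19), a log2 difference of 0.15 (SE 0.199, 95% interval -0.25 to 0.55, edgeR FDR 0.954). The difference fell to 0.02 without CAV487.

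**Figure D1:**
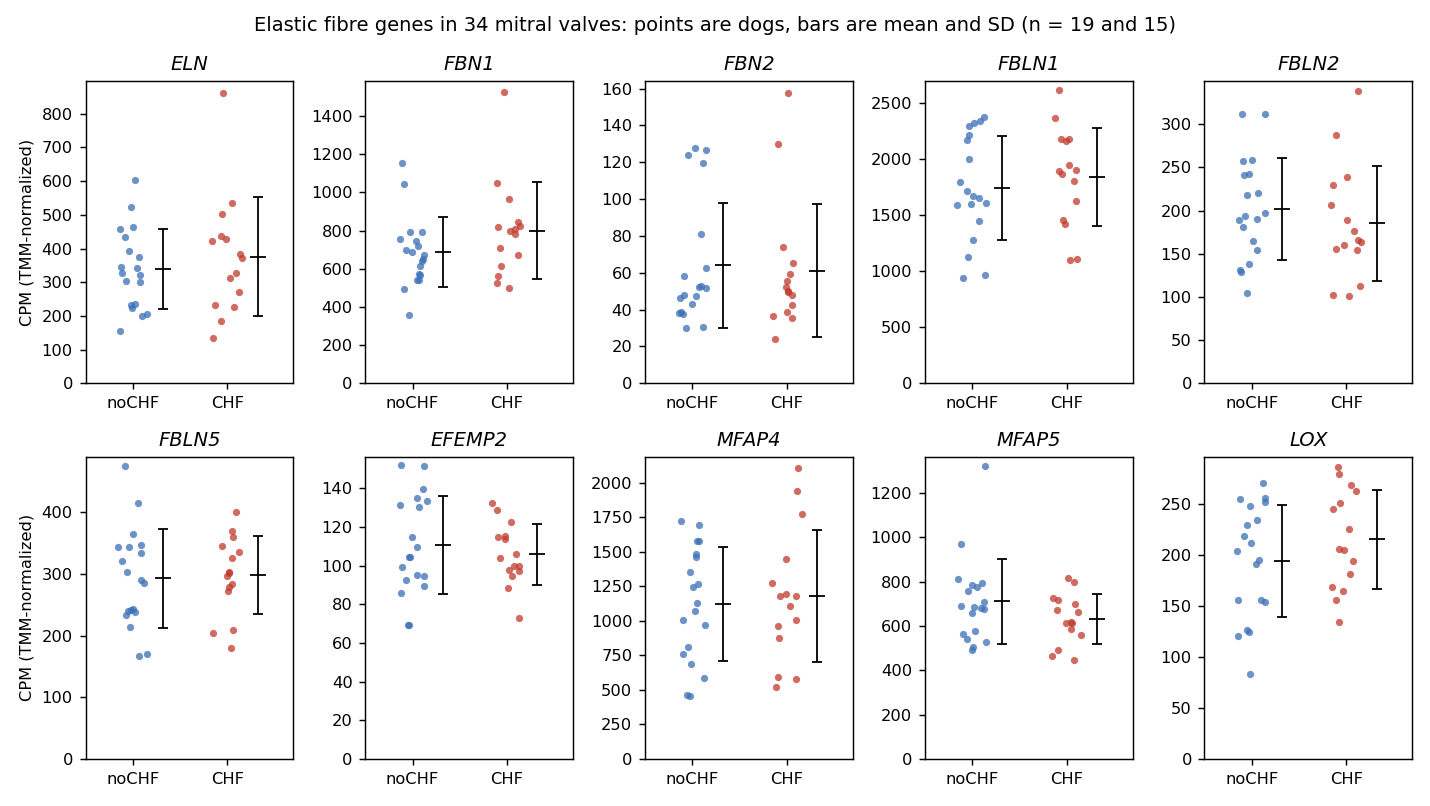
Level of each elastic fibre gene by CHF status. Each panel plots CPM from 0 on a linear axis, each point is 1 dog (blue 10y-noCHF, n = 19, red 10y-MMVD-CHF, n = 15), and black bars give mean and SD; the ranges of the groups overlap for all 10 genes, and *FBN2* shows 6 dogs above a gap, 4 without and 2 with CHF.

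*FBN1*, the main fibrillin of adult microfibrils, had the largest difference among the 10 in absolute value. It ran from 358 through 671 to 1150 CPM in 10y-noCHF dogs. The 10y-MMVD-CHF dogs ran from 500 through 798 to 1530 CPM. Of these, 11 of 15 lay above the median of the dogs without CHF, and 14 of 15 lay inside their range. The log2 difference was 0.22 (SE 0.135, 95% interval -0.05 to 0.50, edgeR FDR 0.848), and 0.12 without CAV1519, the 10y-MMVD-CHF female with the highest level. With the human XenoRefSeq feature, whose total was 1.044 times that of the canine one, *FBN1* was not called either.

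*FBN2*, the fibrillin best known from development, was the most variable of the 10. It ran from 29.7 through 51.6 to 128 CPM in 10y-noCHF dogs and from 24.1 through 50 to 157 CPM in 10y-MMVD-CHF dogs. In 28 dogs it lay between 24.1 and 80.9 CPM, and in the remaining 6 dogs (CAV1047, CAV1114, CAV1731, CAV285, CAV373 and CAV748) between 119 and 157 CPM. Of those 6 dogs, 4 were 10y-noCHF and 2 were 10y-MMVD-CHF. The log2 difference with CHF was -0.03 (SE 0.242, 95% interval -0.52 to 0.47, edgeR FDR 0.993), and its sign turned when single dogs were left out, from -0.22 without CAV1047 to 0.10 without CAV285.

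Neither microfibril-associated glycoprotein passed the test. *MFAP4*, which binds both fibrillin and elastin, ran from 458 through 1130 to 1720 CPM in 10y-noCHF dogs and from 524 through 1180 to 2100 CPM in 10y-MMVD-CHF dogs, with a log2 difference of 0.07 (95% interval -0.34 to 0.47, and -0.02 without CAV1196). *MFAP5* ran from 490 through 686 to 1320 CPM in 10y-noCHF dogs and from 446 through 617 to 817 CPM in 10y-MMVD-CHF dogs. For *MFAP5*, 10 of 15 dogs with CHF lay below the median of the dogs without it, and the 2 highest values, 969 CPM in CAV494 and 1320 CPM in CAV1939, belonged to 10y-noCHF dogs. Its log2 difference was -0.18 (SE 0.110, 95% interval -0.40 to 0.04, edgeR FDR 0.848), and -0.10 without CAV1939.

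The 4 fibulins differed by at most 0.11 in absolute value on the log2 scale. *FBLN1*, a fibulin found along elastic fibres and basement membranes, had means of 1740 ± 465 CPM (SD, n = 19) without CHF and 1840 ± 438 CPM (SD, n = 15) with CHF (log2 difference 0.07, 95% interval -0.20 to 0.34). *FBLN2*, which binds fibrillin and elastin, had means of 202 ± 59 and 185 ± 66.4 CPM (-0.11, -0.43 to 0.21). Without single dogs these differences reached -0.20 for *FBLN2* (without CAV1047) and 0.01 for *FBLN1* (without CAV1519). The lowest and highest dogs of *FBLN2*, CAV1872 at 101 CPM and CAV1047 at 338 CPM, were both females in CHF.

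*FBLN5* and *EFEMP2* both bind tropoelastin, and *EFEMP2* also binds lysyl oxidase. *FBLN5* had means of 293 ± 79.9 CPM without CHF and 298 ± 63.1 CPM with CHF, a log2 difference of 0.02 (95% interval -0.24 to 0.27). *EFEMP2* had means of 111 ± 25.5 and 106 ± 15.8 CPM, a log2 difference of -0.06 (95% interval -0.27 to 0.14, and -0.03 without CAV444). It was the least variable of the 10 genes, and all 15 dogs with CHF lay inside the range of the dogs without it. *LOX* ran from 83.2 through 204 to 271 CPM in 10y-noCHF dogs and from 135 through 206 to 287 CPM in 10y-MMVD-CHF dogs, with a log2 difference of 0.15 (SE 0.137, 95% interval -0.13 to 0.43, edgeR FDR 0.921). The intervals of the 10 genes did not reach beyond -0.52 or 0.55, and they were narrowest for *EFEMP2*, *MFAP5* and *FBLN5*.

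**Figure D2:**
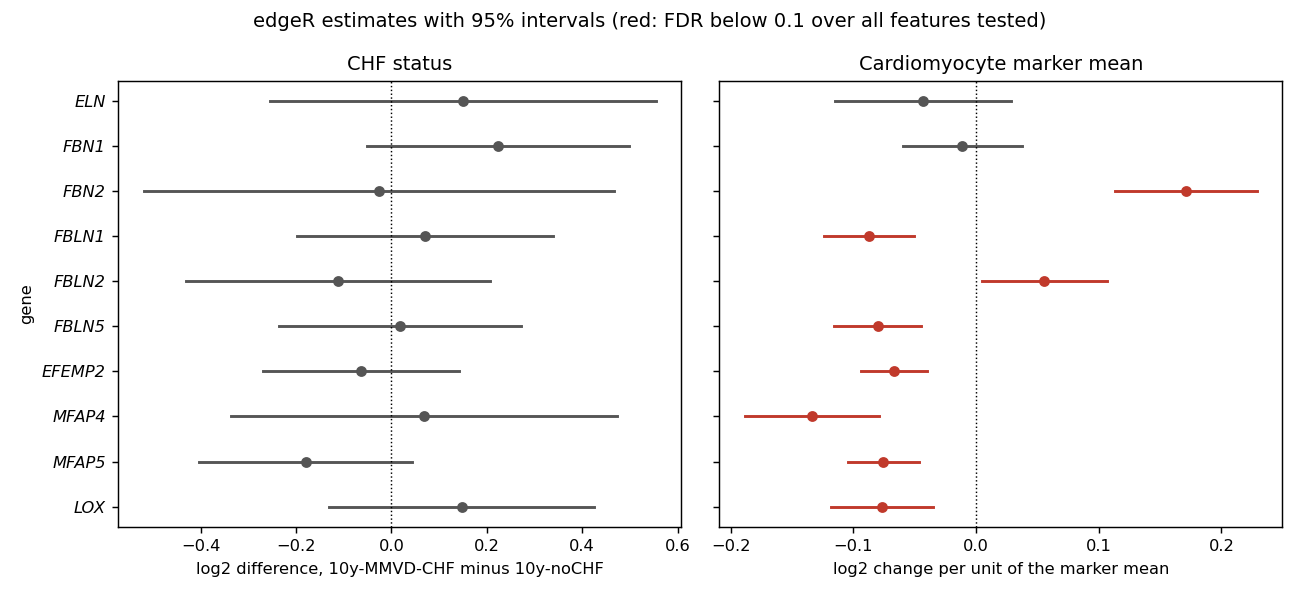
Estimates for each elastic fibre gene with 95% intervals. Left, log2 difference of 10y-MMVD-CHF minus 10y-noCHF dogs, where all 10 intervals include 0; right, log2 change per unit of the mean log2 CPM of 19 cardiomyocyte markers, where red marks the 8 genes with an FDR below 0.1 (6 below 0, *FBN2* and *FBLN2* above 0).

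Between males and females 0 of 10 genes were called, against 0.143% of features. The log2 differences of males minus females ran from -0.25 for *FBN2* to 0.10 for *FBLN1*. The interaction of CHF and sex, which asks whether the difference with CHF was unequal in females and males, also gave 0 of 10 (0% of features were called with edgeR, 6.02% had an unadjusted p below 0.05, and DESeq2 called 0 of 10 genes and 0.0153% of features). *FBN1* was the 1 gene of the 10 with an unadjusted p below 0.05 for this interaction. In females it averaged 640 ± 180 CPM (SD, n = 10) without CHF and 946 ± 326 CPM (SD, n = 6) with CHF. In males it averaged 736 ± 183 CPM (SD, n = 9) without and 702 ± 139 CPM (SD, n = 9) with CHF. The log2 difference was thus 0.56 in females (SE 0.186, edgeR FDR 0.297) and -0.07 in males (SE 0.172, edgeR FDR 1), and their difference of -0.63 (SE 0.254, edgeR p = 0.0182) had an FDR of 0.815. It was -0.44 without CAV1519.

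**Figure D3:**
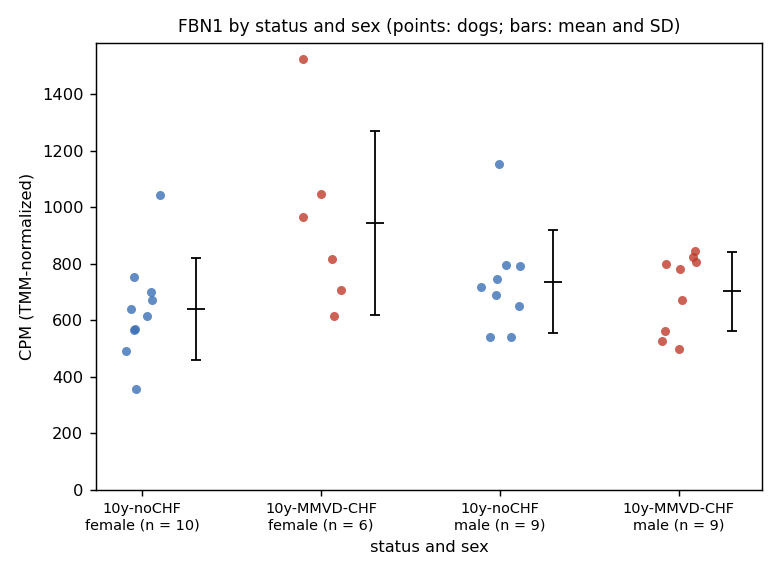
*FBN1* by CHF status and sex. Points are dogs in CPM from 0 on a linear axis, and bars give mean and SD; the 6 females in CHF averaged 946 CPM, with CAV1519 at 1530 CPM, while the other 3 groups averaged 640 to 736 CPM, and the interaction had an FDR of 0.815.

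The elastic fibre genes varied with the amount of heart muscle RNA in the library. The marker mean, an average of log2 CPM over 19 genes of cardiomyocytes, ran from 0.0452 in CAV749 to 10.3 in CAV1047, and it averaged 5.7 ± 3.13 (SD, n = 19) in 10y-noCHF and 6.0 ± 2.73 (SD, n = 15) in 10y-MMVD-CHF dogs. With this mean as a further term beside status and sex, 8 of 10 genes were called, against 38.2% of all features (19.3% higher and 18.9% lower). *MFAP4*, *FBLN1*, *FBLN5*, *LOX*, *MFAP5* and *EFEMP2* fell as the marker mean rose, and *FBN2* and *FBLN2* rose. The median slope over the 10 genes was -0.07, beside -0.006 over all features, on the scale of log2 change per unit of marker mean.

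The steepest slopes were those of *FBN2*, at 0.17 (SE 0.028, edgeR FDR 1.26e-05), and *MFAP4*, at -0.13 (SE 0.027, edgeR FDR 0.000186). *FBN2* stood at 51.6 CPM in CAV749, the dog with the lowest marker mean, and at 157 CPM in CAV1047, the dog with the highest. *MFAP4* stood at 1350 and 524 CPM in the same dogs. The dog with the second highest marker mean, CAV865, had *FBN2* at 52.4 CPM, near the level of CAV749, and *MFAP4* at 971 CPM, so single dogs departed from the slope. All 6 dogs with high *FBN2* had marker means of 8.32 to 10.3 and were among the 9 dogs with the highest marker means, and over the other 28 dogs Spearman's rho of *FBN2* with the marker mean was 0.576, beside 0.745 over all 34, both with status and sex removed.

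The remaining slopes were shallower. They were -0.09 for *FBLN1*, -0.08 for *FBLN5*, *LOX* and *MFAP5*, and -0.07 for *EFEMP2* (edgeR FDR 7.36e-05 to 0.0039). *FBLN2* rose by 0.06 (SE 0.025, edgeR FDR 0.0872), a call that was lost without CAV614 and CAV1047 (0.04, edgeR FDR 0.310) and in 12 of 34 fits that left out 1 dog. *ELN* (-0.04, SE 0.035, edgeR FDR 0.382) and *FBN1* (-0.01, SE 0.024, edgeR FDR 0.762) were not called. Of the 10 markers of valve interstitial cells, the cells that make most of the matrix of the valve, 6 fell with the marker mean and 0 rose (against 18.9% and 19.3% of all features), with a median slope of -0.06. Among markers of other cells, 5 of 8 of macrophages fell and 0 rose, 3 of 10 of endothelium rose and 0 fell, and 5 of 6 of adipocytes rose and 0 fell (median slope 0.33). Of 8 markers of smooth muscle, 4 fell (*ACTA2*, *TAGLN*, *CNN1* and *LMOD1*) and 3 rose (*DES* at 0.66, *MYOCD* at 0.31 and *SMTN* at 0.15). The slope of *DES* lay within those of the 19 cardiomyocyte markers (0.38 for *MYOZ2* to 1.21 for *MYBPC3*), and those of *MYOCD* and *SMTN* lay below them. CPM values were scaled by TMM, which is meant to offset differences in the make-up of libraries. Whether the share of muscle RNA still had a part in these slopes was not tested.

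**Figure D4:**
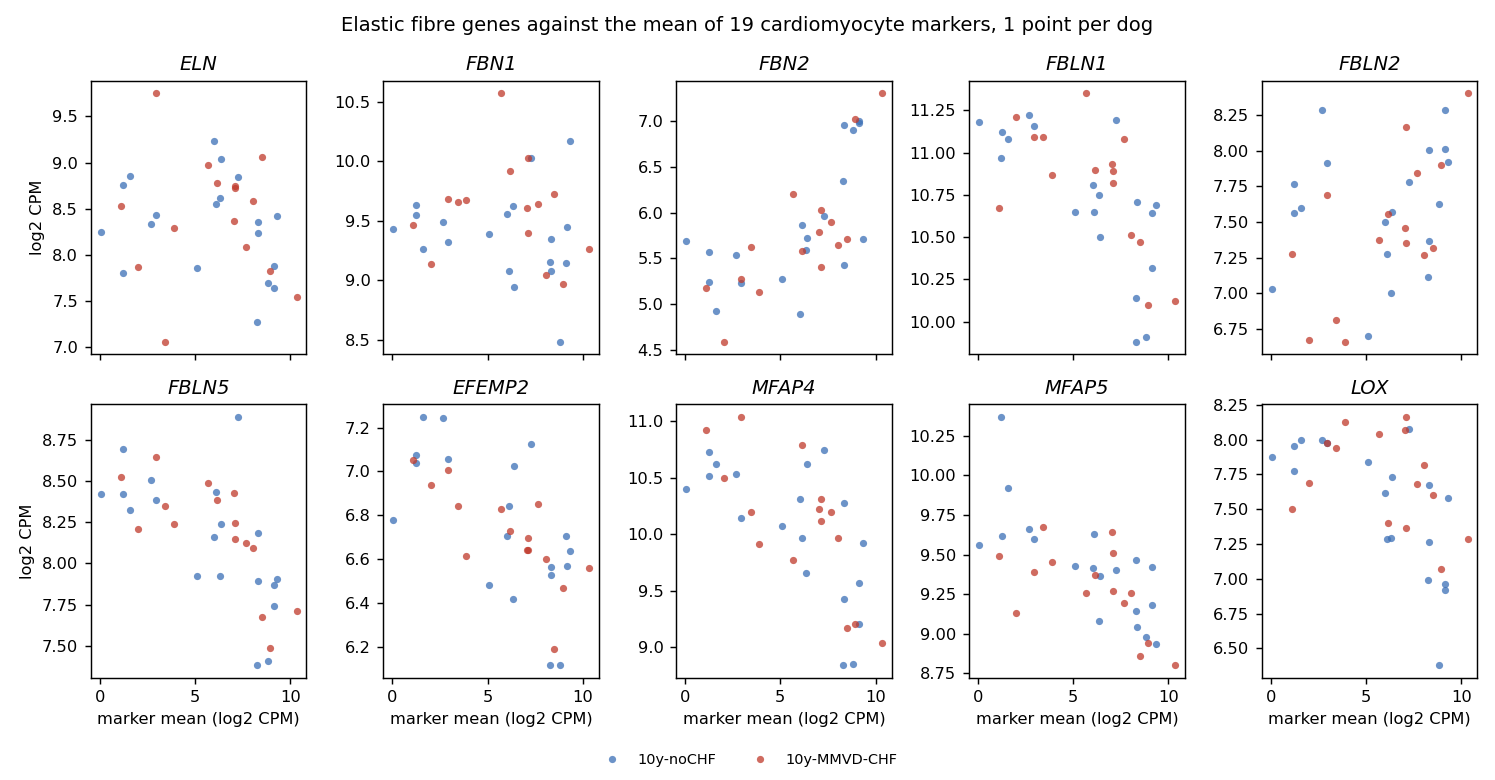
Level of each elastic fibre gene against heart muscle RNA. The x axis is the mean log2 CPM of 19 cardiomyocyte markers, the y axis is log2 CPM of the gene, and each point is 1 dog, coloured by status (blue 10y-noCHF, red 10y-MMVD-CHF); *MFAP4* falls from 1350 CPM to 524 CPM between the dogs at the 2 ends of the x axis, *FBN2* rises from 51.6 to 157 CPM, and *ELN* and *FBN1* show no called slope.

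The slopes were also fitted within each status. Within 10y-noCHF dogs 7 of 10 genes were called (1 higher, 6 lower, against 22.1% of features), and within 10y-MMVD-CHF dogs 7 of 10 (2 higher, 5 lower, against 26.6%). *LOX* fell by 0.09 per unit within 10y-noCHF dogs (edgeR FDR 0.0145), and its value within 10y-MMVD-CHF dogs was -0.04 (edgeR FDR 0.366). *FBLN2* had a slope of 0.02 within 10y-noCHF dogs (edgeR FDR 0.675) and rose by 0.12 within 10y-MMVD-CHF dogs (edgeR FDR 0.0199). The difference between the slopes had an FDR of 0.868 for *LOX* and 0.775 for *FBLN2*. With the marker mean held in the model, 0 of 10 genes were called for CHF status, against 0.153% of features.

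The genes varied more between dogs than most. Their coefficient of variation over all 34 dogs ran from 19.9% for *EFEMP2* to 55.1% for *FBN2*, and all 10 lay above the median of 15.9% over 11686 features with a mean of at least 10 CPM. The highest dog exceeded the lowest by 2.2 times for *EFEMP2*, 6.48 times for *ELN* and 6.54 times for *FBN2*. Summed over the 10 genes, the level ran from 3131 CPM in CAV748 to 7668 CPM in CAV487, with a median of 5797 CPM. The genes weigh unequally in this sum, with median shares from 0.883% for *FBN2* to 20% for *MFAP4* and 31.5% for *FBLN1*. CAV748 held the lowest level of *FBN1*, *EFEMP2* and *LOX*, and CAV1732 held the lowest of *FBLN1*, *FBLN5* and *MFAP4*. Both were 10y-noCHF females with high marker means, 8.81 and 8.28.

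Most pairs of elastic fibre genes were correlated across dogs once the means of status and sex had been removed. Of 45 pairs, 31 passed by Spearman's rho (24 positive, 7 negative, two-sided permutation test with 100000 resamples, Benjamini-Hochberg adjusted p below 0.1), 33 passed by Pearson's r, and 31 passed both. The median rho was 0.393, as a description. Over the pairs of 10992 features with a mean of at least 10 CPM it was -0.002 (quartiles -0.227 and 0.226). The share of all those pairs that would pass was not computed, so the counts of pairs here and below have no background beside them. All values of a dog share 1 library and 1 normalization.

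The tightest pairs joined *FBLN5*, *EFEMP2* and *MFAP4*. *FBLN5* and *EFEMP2* had a rho of 0.852 (Pearson's r 0.847, adjusted permutation p 6.43e-05 and 5.62e-05, r 0.833 without the 2 dogs farthest from the median of *FBLN5*). *EFEMP2* and *MFAP4* had a rho of 0.803 (r 0.821, adjusted permutation p 6.43e-05 and 5.62e-05, r 0.763 without 2 dogs). *FBLN5* and *MFAP4* followed at 0.782, then *FBLN1* and *LOX* at 0.752. The raw permutation p of 1e-05 behind these rho values is the smallest that the resamples can give. *FBLN5* had the highest median rho with the other 9 genes, at 0.636.

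*ELN* went with *FBLN5* (rho 0.534, r 0.512, adjusted permutation p 0.00345 and 0.00411) and *MFAP4* (rho 0.478, r 0.499, adjusted permutation p 0.00896 and 0.00509), and its median rho was 0.393. *FBN1* went with *FBLN1* (rho 0.583, r 0.623, adjusted permutation p 0.0011 and 0.000169) and *LOX* (rho 0.504, r 0.556, adjusted permutation p 0.00611 and 0.00152). *ELN* and *FBN1*, core and scaffold, had a rho of 0.397 (r 0.355, adjusted permutation p 0.0336 and 0.057), a call that was lost by both measures without CAV614 and CAV1047 (rho 0.321, r 0.297, adjusted permutation p 0.111 and 0.127). *FBLN2* passed with *FBN2* alone (rho 0.398, r 0.494, adjusted permutation p 0.0336 and 0.00529), and without the same 2 dogs it was lost by rho and not by r (rho 0.281, r 0.35, adjusted permutation p 0.159 and 0.0724). Without them 26 pairs passed by rho and 33 by r, and the other calls lost by rho were those of *ELN* with *FBN2* and with *LOX* and of *FBN1* with *FBLN5* (adjusted permutation p 0.111 to 0.122), all of which passed by r (adjusted permutation p 0.021 to 0.0571). *FBN1* and *FBN2* gained a call by r without them (r -0.336, adjusted permutation p 0.086), beside r -0.289 over all 34 dogs (adjusted permutation p 0.129). The median rho of *FBLN2* with the other 9 genes was -0.04, and it was 0.204 once the marker mean was removed as well. In that setting *FBLN2* also passed with *EFEMP2* (rho 0.59, r 0.608, adjusted permutation p 0.00371 and 0.000707).

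*FBN2* stood apart from the rest. All 7 negative pairs that passed involved *FBN2*, down to a rho of -0.704 with *MFAP4*, and these values include the 6 dogs with high *FBN2*. Over the 28 dogs below the gap in its values, the rho of *FBN2* lay between -0.32 (*MFAP4*) and 0.13 (*FBLN2*) with the other 9 genes. Choosing dogs by *FBN2* narrows its range, which by itself brings rho closer to 0, so how much of the relation comes from the 6 dogs was not tested. After removal of the marker mean as well, 27 pairs passed (24 positive, 3 negative) with a median rho of 0.331. The 3 negative pairs were those of *FBN2* with *LOX* (rho -0.517, adjusted permutation p 0.0109), *MFAP4* (-0.444, adjusted permutation p 0.028) and *ELN* (-0.423, adjusted permutation p 0.0374). *FBN2* had a rho of -0.01 with *FBLN5* and 0.04 with *EFEMP2*, and the rho of *FBLN5* and *EFEMP2* was 0.66. Within 10y-noCHF dogs 24 pairs passed by rho and 28 by r. Within the 15 10y-MMVD-CHF dogs 6 pairs passed by rho, all positive and all with *FBLN5* or *EFEMP2*, whereas 18 passed by r (14 positive, 4 negative), among them *FBN2* and *MFAP4* (r -0.707, adjusted permutation p 0.0231) and *FBN1* and *FBLN1* (r 0.698, adjusted permutation p 0.0231). Whether the correlations themselves differed between the statuses was not tested.

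**Figure D5:**
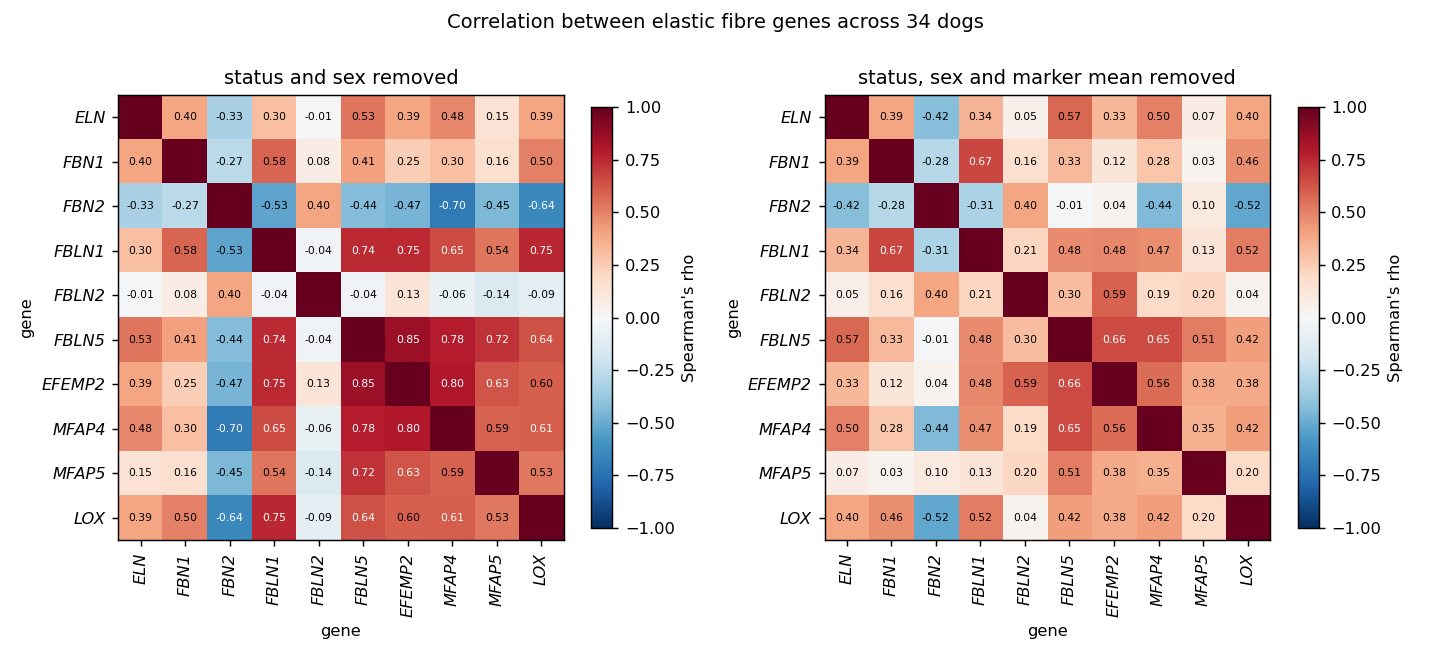
Spearman's rho between the 10 elastic fibre genes across 34 dogs, with status and sex removed (left) and with the cardiomyocyte marker mean removed too (right). Red is positive and blue is negative on a scale from -1 to 1; *FBLN1*, *FBLN5*, *EFEMP2*, *MFAP4*, *MFAP5* and *LOX* form a red block on the left (0.528 to 0.852), while the *FBN2* row on the left is blue except with *FBLN2*.

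The wider machinery of elastic fibres was read from 4 lists of 65 genes, of which 61 passed the filter. These lists were drawn up with earlier results of these data known. The study had reported *ADAMTS6*, a member of the lists, as differentially expressed in these dogs. The counts of genes called are therefore no independent evidence about the lists. Between 10y-MMVD-CHF and 10y-noCHF dogs, 0 genes rose and 1 fell at an FDR below 0.1, against 0.0256% and 0.092% of all features, with a median log2 difference of -0.003 over the 61, beside 0.0076 over all features. That gene was *ADAMTS6*, a secreted metalloproteinase that cuts extracellular matrix proteins, at 25.5 ± 10.5 CPM (SD, n = 19) without and 13.9 ± 6.35 CPM (SD, n = 15) with CHF. Its log2 difference was -0.96 (SE 0.219, edgeR FDR 0.0943), close to the threshold. DESeq2 called it as well (-0.96, FDR 0.00536), as did 7 of 11 alternatives in all. Of these 7, the human XenoRefSeq feature repeats the main fit, because *ADAMTS6* has no canine RefSeq feature. The call was lost in 26 of 34 fits that left out 1 dog. Over the 34 fits, log2 differences ran from -1.06 to -0.87 (edgeR FDR 0.0151 to 0.239). *ADAMTS6* also fell with the marker mean (-0.09 per unit, edgeR FDR 0.0421). With the marker mean held in the model, its log2 difference with CHF was -0.89 (edgeR FDR 0.0702).

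Among the 23 genes of crosslinking and assembly, 3 had a log2 difference below 0 and 1 above 0 at an unadjusted p below 0.05, against 3.51% and 2.8% of all features. *TNXB*, a tenascin of the matrix, stood at -0.34 (SE 0.108, edgeR FDR 0.428), *ADAMTSL5*, which binds fibrillin, at -0.34 (SE 0.115, edgeR FDR 0.480) and *ATP7A*, which loads copper into lysyl oxidase, at 0.21 (SE 0.071, edgeR FDR 0.522). The study had reported *TNXA*, a feature of like name outside these lists, as lower in dogs with CHF. Whether *TNXA* and *TNXB* share reads was not tested. Of 16 microfibril and latent TGF-beta binding proteins, 0 were called, and the smallest p values were those of *MFAP3* (0.13), *EMILIN3* (-0.31) and the scarce *FBN3* (-0.71), given as log2 differences with an edgeR FDR of 0.797 to 0.863. Of 14 integrins and receptors, 0 were called, with *ITGA9* at 0.20, *ITGA5* at -0.17 and *GLB1*, the gene of the elastin binding protein, at -0.14. Of 12 elastases, 8 were tested and 0 called, with *MMP12* at -0.51 (SE 0.343), the scarce *MMP9* at -1.11 (SE 0.766) and *CTSL* at 0.07. *CELA1*, *ELANE*, *MMP7* and *PRTN3* did not reach 100 counts over all dogs. With the marker mean, 4 of the 61 genes rose and 33 fell, against 19.3% and 18.9% of all features.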

How the data were processed

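Mitral valve RNA of 34 dogs was analysed. Per the file headers and the methods of the study, the authors mapped paired reads of polyadenylated RNA with STAR to canFam4 (UU_Cfam_GSD_1.0) and deposited raw counts per feature from featureCounts 2.0.3, over 2165 canine RefSeq and 21603 human XenoRefSeq features. A read was assigned to every feature it overlapped, without strand, and the reads of a pair were counted separately, so 71% of nonzero counts were even and counts overstate the number of fragments. The table held 35 columns with counts, and 1 column that matches no sample was not used. Status and sex came from the labels.

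The 19568 features that reached 100 counts over all dogs were tested with edgeR 4.0.16 (quasi-likelihood, TMM, R 4.3.3), status and sex as terms and an FDR threshold of 0.1. The methods of the study name DESeq2, which was an alternative here (1.42.0), as was limma 3.58.1 voom. Standard errors of edgeR were derived from F. The other terms were the interaction of CHF and sex and the mean log2 CPM of 19 cardiomyocyte markers. Correlations used log2 CPM (prior count 2). The edgeR test was run on simulated data first. A canine RefSeq feature was used where a gene had both kinds. Total counts per dog were 46185256 to 82361245, and this depth makes counting error small beside the spread between dogs for the 10 genes (1614 counts or more in each dog). Other alternatives were RLE and upper-quartile normalization, filterByExpr, no filter, no sex term and the marker mean as covariate. Further fits had haemoglobin features left out, CAV614 and CAV1047 left out, and each dog left out. The human XenoRefSeq feature was also used for every gene, which differs from the main fit for *FBN1* alone among the 10 genes. Fits within each status, *FBN1* without CAV1519 and *FBN2* below the gap were added after the data were seen.

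The members, lists and tests were chosen with earlier results of these data known. Named are all 10 members, pathway genes with an FDR below 0.1, the 3 smallest p in each pathway list, and for each member the 3 features of other symbols with the highest rho. The result for 1 gene that this rule would name is not reported here. CAV numbers are the dogs' labels.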

Additional observations from a re-analysis of the deposited data

Results flagged for a closer look

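Dixon's test for 1 dog far from its group was run for the 10 genes in the 4 groups of status and sex on the log2 CPM scale, 40 tests of which chance gives about 2, and 2 passed. *FBN2* in 10y-noCHF males stood at 124 CPM in CAV285, and the next dog, CAV901, stood at 58.2 CPM, a gap of 0.638 of the range of the group (9 dogs, critical value 0.493). *MFAP5* in 10y-MMVD-CHF females stood at 446 CPM in CAV1047, and the next dog, CAV1519, stood at 612 CPM, a gap of 0.662 of the range (6 dogs, critical value 0.625). Both dogs had high cardiomyocyte marker means, 8.32 in CAV285 and 10.3 in CAV1047. Their part in these values was not tested.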

How the results depend on the processing

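Over 30 results, 299 of 309 values from alternatives other than leaving out 1 dog kept their direction and side of the threshold, or moved by less than the set limits. These include the human XenoRefSeq feature, which repeats the main fit for *ADAMTS6* and for the 9 elastic fibre genes counted on that feature. Their agreement there was fixed beforehand. The call of *ADAMTS6* from the pathway lists became 0 with voom, no filter, no sex term and without CAV614 and CAV1047, with log2 differences of -0.97 to -0.85 over 11 alternatives (0 to 1 when single dogs were left out, 0 in 26 of 34 fits). Pairs correlated by Spearman's rho numbered 6 within the 15 10y-MMVD-CHF dogs (18 by Pearson's r). The rise of *FBLN2* with the marker mean lost its call with voom (0.0537), upper quartile (0.0463) and without CAV614 and CAV1047 (0.037), and without any 1 of CAV1047, CAV1114, CAV1196, CAV1731, CAV1784, CAV1872, CAV2156, CAV285, CAV373, CAV614, CAV749 and CAV865 (0.0456 to 0.0558, edgeR FDR 0.102 to 0.188). The sign of *FBN2* turned for sex with voom (0.0816) and for the interaction with the marker mean as covariate (-0.304). The causes were not tested.

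Without single dogs, the log2 difference with CHF ran from -0.218 to 0.0957 for *FBN2*, -0.0141 (CAV487) to 0.07 for *FBLN5* and -0.0174 (CAV1196) to 0.132 for *MFAP4*, and the interaction of *FBN2* from -0.0872 (CAV373) to 0.634 (CAV1047). The count of members called for CHF status, sex and the interaction was 0 in every alternative. No paired analysis was possible because the labels give dogs and no replicate numbers shared between groups. Levels were limited by the spread between dogs rather than by depth.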

Other observations

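The features whose levels went most closely with each elastic fibre gene were ranked by Spearman's rho of log2 CPM over 34 dogs, with status and sex removed, among 10992 features with a mean of at least 10 CPM. The cardiomyocyte marker mean, for which 38.2% of all features were called, was not removed, and its part in these rho values was not tested. *ELN* was nearest to *FSTL1* (0.787), a secreted glycoprotein, *PRRT4* (0.754) and *FOXS1* (0.724), a forkhead transcription factor. *FBN1* was nearest to *PTPN14* (0.844), *STT3A* (0.828), a subunit of the oligosaccharyltransferase, and *AGRN* (0.827), a heparan sulphate proteoglycan. *FBN2* was nearest to *PPARA* (0.859), a nuclear receptor of fatty acid oxidation, *FITM2* (0.853), a lipid droplet protein, and *DUSP3* (0.851), and these values include the 6 dogs with high *FBN2*. *LOX* was nearest to *RGL1* (0.801), *RPN1* (0.795), another subunit of the oligosaccharyltransferase, and *GLCE* (0.79).

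*FBLN1* was nearest to *OS9* (0.892), *NUCB1* (0.88) and *AEBP1* (0.879), a collagen-binding protein. *FBLN2* was nearest to *STC2* (0.888), *ZNF423* (0.863) and *TCEA3* (0.833). *FBLN5* was nearest to *SLC2A10* (0.929), a glucose transporter family member whose loss causes arterial tortuosity, and *DPYSL3* (0.917). *EFEMP2* was nearest to *PODN* (0.923), a leucine-rich matrix proteoglycan, *OLFML3* (0.918) and *VASN* (0.917), a membrane protein that binds TGF-beta. *MFAP4* was nearest to *CHRD* (0.867), *ARSA* (0.863) and *PDLIM2* (0.861), and *MFAP5* to *ZBTB14* (0.84), *FAIM2* (0.816) and *TNFRSF19* (0.796). For *ELN* the nearest elastic fibre gene was *FBLN5* (0.534), and 192 features lay nearer. The number of features nearer than any other elastic fibre gene was lowest for *LOX*, at 13, and highest for *FBN2*, at 2187, followed by *FBLN2* at 1504 and *FBN1* at 441. These are descriptions, and a rho chosen as the highest of 10992 overstates what other dogs would give.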
